A study of Mus musculus with 24 samples.

Results

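The genes described here are 37 genes of macrophages and other myeloid cells, chosen by name. Every probe annotated to one of them was taken, through the platform's symbol or the gene column of the authors' summary table, with the older name Emr1 used for Adgre1. They had 74 of the 45281 probes on the array, and 56 of these probes passed the filter on dim values, which kept 25425 probes in all. Of the 37 genes, 35 had a kept probe. Ccr2, the receptor that brings monocytes out of the blood, and Cybb, the catalytic subunit of the phagocyte oxidase, had none. The whole array covered 19070 named genes, of which 13009 had a kept probe.

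The samples were left ventricles of 24 male mice of mixed genetic background, each hybridised to 1 Illumina array, in a series on a model of dilated cardiomyopathy. The 11 wild-type (WT) controls were 27 to 33 weeks old. The 13 knockout (KO) mice had lost, in the heart only, the EP4 receptor for prostaglandin E, whose gene is Ptger4, and were 27 to 33.5 weeks old. The labels split them by ejection fraction (EF), the share of blood pumped out at each beat, into 6 hearts of low EF (13.7 to 34%) and 7 of high EF (45.9 to 76.4%), against 71.4 to 86.1% in WT. The sources used here give neither the promoter that drove the deletion and the cells that lost the gene, nor whether WT mice carried the recombinase.

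Macrophages are the main leukocytes of the resting heart. Resident cells, many of them seeded before birth, scavenge debris and sample the matrix, while monocytes that enter from the blood through CCR2 add to them after injury. The growth factor CSF1 and its receptor keep macrophages alive, Fc receptors and lectins pass signals through adaptors with an immunoreceptor tyrosine activation motif (ITAM), and engulfed material ends in lysosomes rich in cathepsins. In ventricle RNA, a change in the number of cells of a type and a change in RNA per cell, up or down, cannot be told apart.

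KO high EF replicate 11 stood apart. Over all probes it correlated with the remaining arrays at a median of 0.778, where each of the 23 others reached 0.968 to 0.986, and its median raw intensity of 106 was the lowest (116 to 155 in the others). In that heart 43.2% of all genes tested lay above the highest WT heart, against 11.1 to 17.8% in the other KO high EF hearts, so counts and calls that change are also given without it. The labels' tissue held: Myh6, the main myosin of the mouse ventricle, measured 15.83 to 16.02 in all hearts on the normalized log2 scale. The Ptger4 probe did not serve as a check of the genotype, since it lay near the array median of 6.77 in WT (6.90 ± 0.13, SD, n = 11). It differed from WT by -0.04 ± 0.14 in KO low EF hearts (adjusted p = 0.901) and by 0.20 ± 0.13 where EF was high (adjusted p = 0.338). Differences here and below are log2 differences ± standard error from limma, with Benjamini-Hochberg adjustment over all kept probes and a threshold of 0.05, on the brightest kept probe of each gene.

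Macrophage genes were higher in both KO groups than in WT. In KO low EF hearts 30 of the 35 tested members rose and none fell, where 15.1% of all genes tested rose and 13.4% fell. The median difference of the 35 was 0.97 (range 0.17 to 1.71), against 0 over all genes. In KO high EF hearts 27 of 35 rose and none fell, against 10.7% and 6.55% of all genes, with a median of 0.90 (0.01 over all genes). Without KO high EF replicate 11 the counts were 33 in KO low EF (background 20% higher, 18.4% lower) and 31 in KO high EF hearts (11.6% higher, 10.3% lower), and none fell. The filter favours genes that are bright in some group: all WT hearts lay at or below 6.75 for Itgam, so this gene passed on KO hearts alone. For Ncf1 and Ptprc the median WT heart (6.42 and 6.67) lay below the array median of 6.77. WT hearts by themselves thus did not reach the 6 arrays that the filter needed, and both genes passed only with KO hearts. Itgam and Ncf1 are among the 30 genes that rose in KO low EF hearts. Both comparisons use the same WT hearts. The members were chosen with earlier results of these data known. The shares of all genes beside their counts are thus a description and not an independent test.

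**Figure D1:**
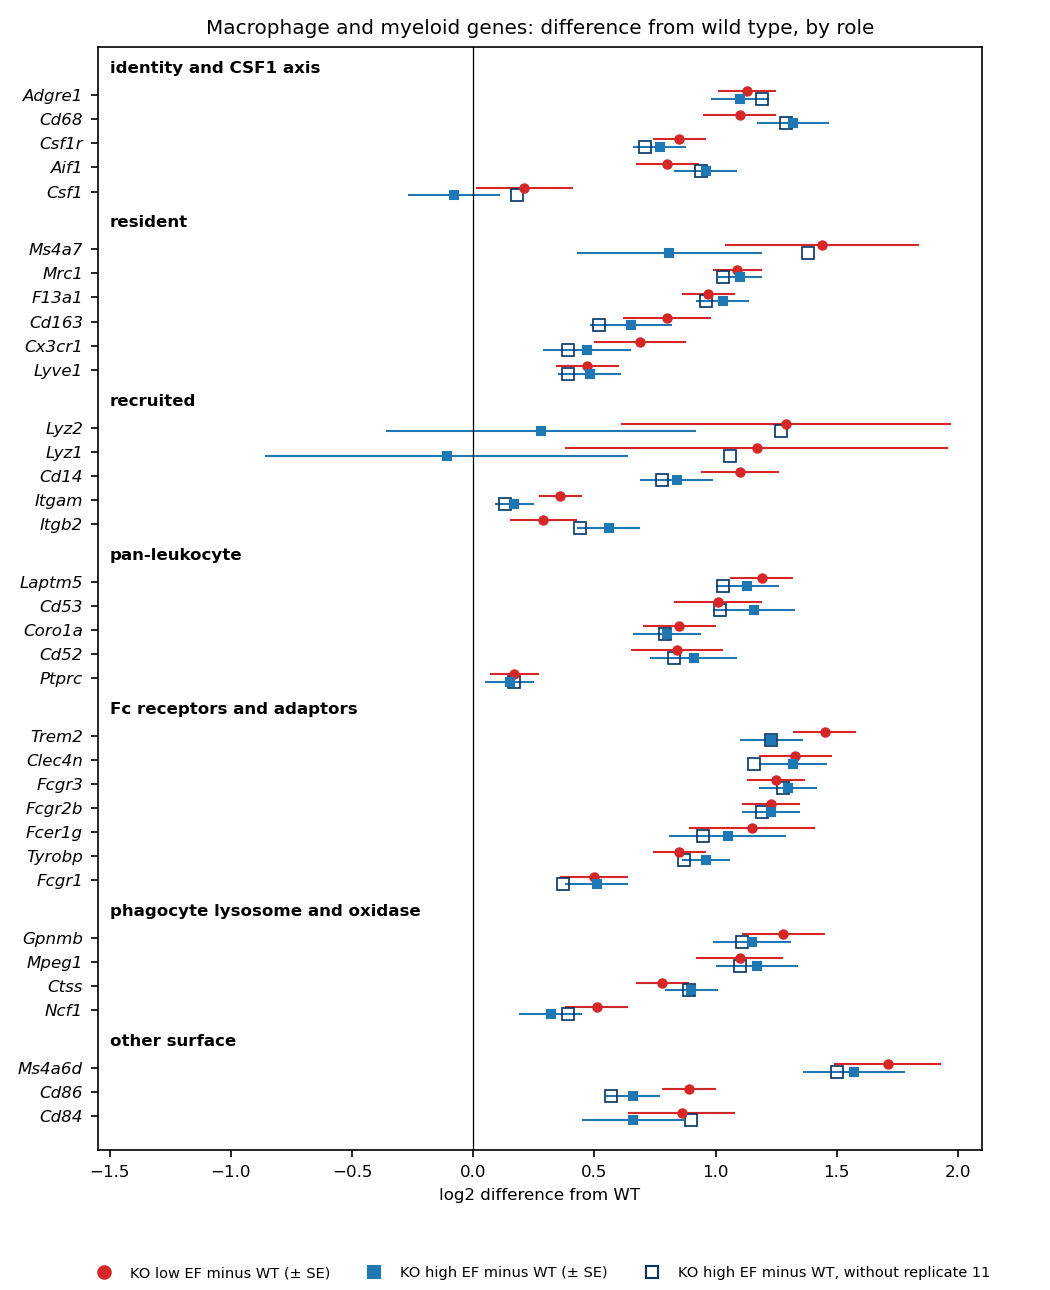
Log2 difference from WT for the 35 tested members, grouped by role. Circles are KO low EF (n = 6) and filled squares KO high EF hearts (n = 7) against 11 WT hearts, with bars of 1 standard error. Open squares leave out KO high EF replicate 11. Nearly every symbol lies to the right of 0, and the wide bars of Lyz1, Lyz2 and Ms4a7 belong to genes in which replicate 11 lay far below the other hearts.

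Of the 5 genes of macrophage identity and the CSF1 axis, 4 rose in each KO group, and the growth factor Csf1 did not pass. Adgre1, the surface receptor known as F4/80, measured 8.50, 8.88 and 9.28 in WT (lowest, median and highest of 11 hearts). Its values were 9.66, 10.08 and 10.18 in KO low EF and 9.45, 10.12 and 10.44 in the KO high EF hearts. Every KO heart lay above every WT heart, and the differences were 1.13 ± 0.12 (2.18-fold, adjusted p = 1.47e-07) and 1.10 ± 0.12 (2.15-fold, adjusted p = 4.72e-07). Csf1r, the receptor for CSF1, was 9.48 to 9.99 in WT (median 9.91) and 10.25 to 10.97 over both KO groups, also without overlap. It rose by 0.85 ± 0.11 in KO low EF and by 0.77 ± 0.11 in the KO high EF hearts. Cd68, a lysosomal glycoprotein of macrophages, rose by 1.10 ± 0.15 and 1.32 ± 0.15, and Aif1, an actin-binding protein used to stain macrophages and microglia, by 0.80 ± 0.13 and 0.96 ± 0.13.

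Csf1 itself, the ligand, measured 8.56, 8.80 and 9.25 in WT (lowest, median and highest). It measured 8.82, 9.11 and 9.13 in KO low EF, and 8.80, 9.04 and 9.10 in the KO high EF hearts without replicate 11, which lay at 7.19. All 3 groups overlapped. The differences were 0.21 ± 0.20 in KO low EF (adjusted p = 0.55) and -0.08 ± 0.19 in KO high EF hearts (adjusted p = 0.823), and without replicate 11 they were 0.21 ± 0.09 (adjusted p = 0.0967) and 0.18 ± 0.09 (adjusted p = 0.213). Of the 13 tested genes on a wider list of CSF1, ITAM and oxidase signalling, 7 rose in KO low EF and 6 in the KO high EF hearts and none fell (9 and 7 rose without replicate 11). Il34, the other ligand of CSF1R, rose by 0.52 ± 0.13 in KO low EF (adjusted p = 0.00395) and measured 0.08 ± 0.13 in KO high EF hearts (adjusted p = 0.733). The difference between the KO groups was 0.44 ± 0.14 (adjusted p = 0.103). Without replicate 11 no gene of this list was higher in KO low EF than in KO high EF hearts by more than 0.30, and none passed. Vav1, a nucleotide exchange factor downstream of ITAM receptors, rose by 0.82 ± 0.12 and 0.70 ± 0.11, and Inpp5d, a lipid phosphatase that restrains them, by 0.64 ± 0.12 and 0.62 ± 0.11. Spi1, the myeloid transcription factor PU.1, measured 0.13 ± 0.11 (adjusted p = 0.469) and 0.23 ± 0.10 (adjusted p = 0.159).

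All 6 genes used as marks of resident cardiac macrophages rose in KO low EF hearts, and 4 of 6 in the KO high EF hearts (5 without replicate 11). Mrc1, the mannose receptor, had the smallest adjusted p of the 35 members in both comparisons. It measured 10.12, 10.31 and 10.64 in WT (lowest, median and highest), 11.17, 11.38 and 11.66 in KO low EF and 11.05, 11.39 and 11.83 in the KO high EF hearts. No KO heart reached down to the WT range, and Mrc1 rose by 1.09 ± 0.10 (2.13-fold, adjusted p = 4.64e-09) and 1.10 ± 0.09 (2.15-fold, adjusted p = 1.48e-08). F13a1, the catalytic subunit of coagulation factor XIII, which macrophages make, rose by 0.97 ± 0.11 and 1.03 ± 0.11, again with all KO hearts (11.67 to 12.60) above all WT hearts (10.90 to 11.42). Cd163, the scavenger receptor for haemoglobin bound to haptoglobin, rose by less and with overlap, by 0.80 ± 0.18 and 0.65 ± 0.17. Its KO high EF call was lost with arrays scaled to a common median (0.59, adjusted p = 0.0643).

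Ms4a7, a membrane protein of macrophages, had the largest KO low EF difference among the resident genes and one of the widest errors. Its values were 8.04, 8.57 and 9.10 in WT (lowest, median and highest), 9.49, 9.98 and 10.45 in KO low EF hearts, and 9.60 to 10.22 in 6 KO high EF hearts, with replicate 11 at 5.99. It rose by 1.44 ± 0.40 in KO low EF (adjusted p = 0.00905, and 0.0916 with the prefix of the array label as a block) and measured 0.81 ± 0.38 in KO high EF hearts (adjusted p = 0.174). Without replicate 11 the differences were 1.44 ± 0.14 and 1.38 ± 0.14. Lyve1, a hyaluronan receptor shared by resident macrophages and lymphatic endothelium, showed the smallest rise. Its WT values of 9.26, 9.53 and 10.38 ran across those of KO low EF (9.93, 10.09 and 10.29) and KO high EF hearts (9.89, 10.04 and 10.67), since a single WT heart reached 10.38. Lyve1 rose by 0.47 ± 0.13 and 0.48 ± 0.13. Scaling the arrays to a common median ended the KO high EF call (0.42, adjusted p = 0.148). Cx3cr1, the receptor for fractalkine, measured 7.17, 7.48 and 8.02 in WT, 7.34, 8.34 and 9.20 in KO low EF and 7.73, 7.94 and 8.52 in the KO high EF hearts. It rose by 0.69 ± 0.19 in KO low EF (adjusted p = 0.0094), and KO high EF hearts, at 0.47 ± 0.18, did not pass (adjusted p = 0.0955).

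Further genes known from resident macrophages, 11 of them tested, gave 6 rises in each KO group (7 without replicate 11). Vsig4, a complement receptor, rose by 1.32 ± 0.16 and 1.31 ± 0.15, and Pf4, a chemokine of platelets and macrophages, by 0.63 ± 0.14 and 0.87 ± 0.14. Gas6, a ligand that bridges dying cells to engulfing receptors, rose by 0.53 ± 0.09 and 0.34 ± 0.08. Stab1, a scavenger receptor of macrophages and some endothelia, went the other way and fell by 0.86 ± 0.13 in KO low EF hearts (adjusted p = 1.63e-05). In KO high EF hearts Stab1 measured -0.31 ± 0.13 with all arrays (adjusted p = 0.104), and without replicate 11 it fell there too, by 0.42 ± 0.11 (adjusted p = 0.00548). It was lower in KO low EF than in KO high EF hearts (-0.55 ± 0.14, adjusted p = 0.0368), also without replicate 11 (-0.44 ± 0.12, adjusted p = 0.0376).

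**Figure D2:**
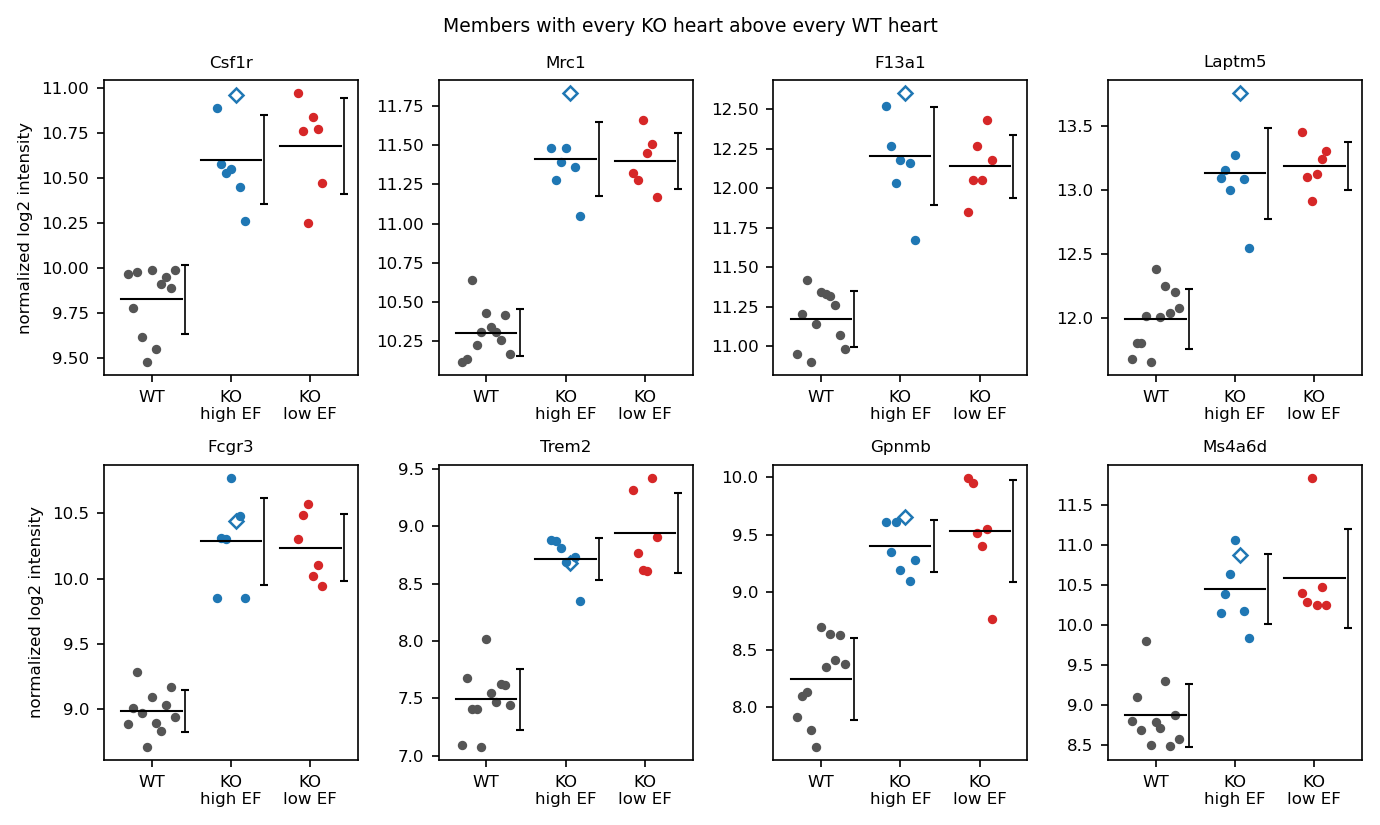
Normalized log2 intensity of 8 members in each of 24 hearts, by group. Points are hearts, the open diamond is KO high EF replicate 11, lines are group means and bars 1 SD. In every panel each KO heart lies above each WT heart, while the KO groups overlap.

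The next genes were grouped as marks of recruited monocytes and their progeny. Lyz1, Lyz2 and Cd14 among them were bright in WT hearts (means of 13.74, 11.74 and 9.15), while Ccr2 was too dim to test. Whether recruited or resident cells made their RNA was not tested. The genes of this group moved less evenly. With all arrays 2 of 5 tested rose in each KO group, and without KO high EF replicate 11 the counts were 5 in KO low EF and 4 in the KO high EF hearts. Cd14, the co-receptor for bacterial lipopolysaccharide, rose by 1.10 ± 0.16 and 0.84 ± 0.15. Its values were 8.51 to 9.71 in WT, 9.85 to 10.72 in KO low EF and 9.59 to 10.40 in the KO high EF hearts, so the KO low EF hearts alone were clear of WT. Itgam and Itgb2 encode the alpha and beta chains of the integrin Mac-1, and both probes were dim. Itgam measured 6.32, 6.54 and 6.75 in WT (lowest, median and highest), 6.52, 6.93 and 7.15 in KO low EF and 6.51, 6.73 and 6.94 in the KO high EF hearts, rising by 0.36 ± 0.09 in KO low EF hearts (adjusted p = 0.0029). In KO high EF hearts its difference was 0.17 ± 0.08 (adjusted p = 0.191). Itgb2 measured 6.28, 6.96 and 7.14 in WT, 6.95, 7.18 and 7.48 in KO low EF and 7.09, 7.30 and 8.20 in the KO high EF hearts. It rose in KO high EF hearts (0.56 ± 0.13, adjusted p = 0.00392) and measured 0.29 ± 0.14 in KO low EF hearts (adjusted p = 0.137, and 0.0397 without replicate 11).

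Ccr2, the receptor of recruited monocytes, was not tested: its brighter probe lay between 5.94 and 6.58 in all hearts, below the array median of 6.77. Of 8 further monocyte genes tested, Vcan rose in both groups (1.45 ± 0.18 and 1.07 ± 0.17) and no other did with all arrays. Vcan encodes the matrix proteoglycan versican, which fibroblasts make as well. Without replicate 11 the counts were 2 in KO low EF and 3 in the KO high EF hearts, against 20% and 11.6% of all genes. Hp, the haemoglobin scavenger haptoglobin, then rose by 0.69 ± 0.22 (adjusted p = 0.0145) and 0.80 ± 0.22 (adjusted p = 0.00917). Plac8, a small protein of myeloid cells, then rose in KO high EF hearts by 0.32 ± 0.11 (adjusted p = 0.0392). Chil3, a secreted lectin of activated myeloid cells, measured 0.14 ± 0.10 (adjusted p = 0.347) and 0.16 ± 0.09 (adjusted p = 0.266) on a probe near the array median.

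Lyz1 and Lyz2 encode lysozymes, and in replicate 11 both lay far below every other heart. Lyz1 measured 13.44, 13.71 and 14.17 in WT (lowest, median and highest), 14.52, 14.97 and 15.14 in KO low EF hearts, and 14.44 to 15.21 in 6 KO high EF hearts, with replicate 11 at 6.63. For Lyz2 the values were 11.16, 11.83 and 12.23 in WT, 12.82, 13.00 and 13.30 in KO low EF, and 12.56 to 13.38 in the same 6 KO high EF hearts, with replicate 11 at 6.10. Apart from replicate 11, every KO heart lay above every WT heart for both genes. With all arrays neither passed: Lyz1 measured 1.17 ± 0.79 in KO low EF (adjusted p = 0.345) and -0.11 ± 0.75 in KO high EF hearts (adjusted p = 0.944), and Lyz2 1.29 ± 0.68 (adjusted p = 0.193) and 0.28 ± 0.64 (adjusted p = 0.82). Without replicate 11 Lyz1 rose by 1.17 ± 0.11 (adjusted p = 3.16e-09) and 1.06 ± 0.11 (adjusted p = 1.15e-07), and Lyz2 by 1.29 ± 0.15 and 1.27 ± 0.15.

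In replicate 11 the probes of a single gene disagreed. Its second Lyz1 probe read 8.67, the highest of all 24 hearts (6.52 to 8.41 in the others), while the third read 5.96, the lowest. A second Lyz2 probe read 5.99, against 10.68 to 12.96 elsewhere. The second Ms4a7 probe read 8.65 there, above all others (6.70 to 7.97), whereas the brightest one was the lowest. With all arrays the second Lyz1 probe rose by 0.80 ± 0.20 in KO low EF (adjusted p = 0.00287) and 1.07 ± 0.19 in KO high EF hearts (adjusted p = 0.000229), and the third by 0.79 ± 0.22 and 0.69 ± 0.21. The second Ms4a7 probe rose by 0.67 ± 0.14 and 0.82 ± 0.14. The probe sequences were not used here, so reads of Lyz1 and Lyz2 RNA by each other's probes cannot be told apart.

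**Figure D3:**
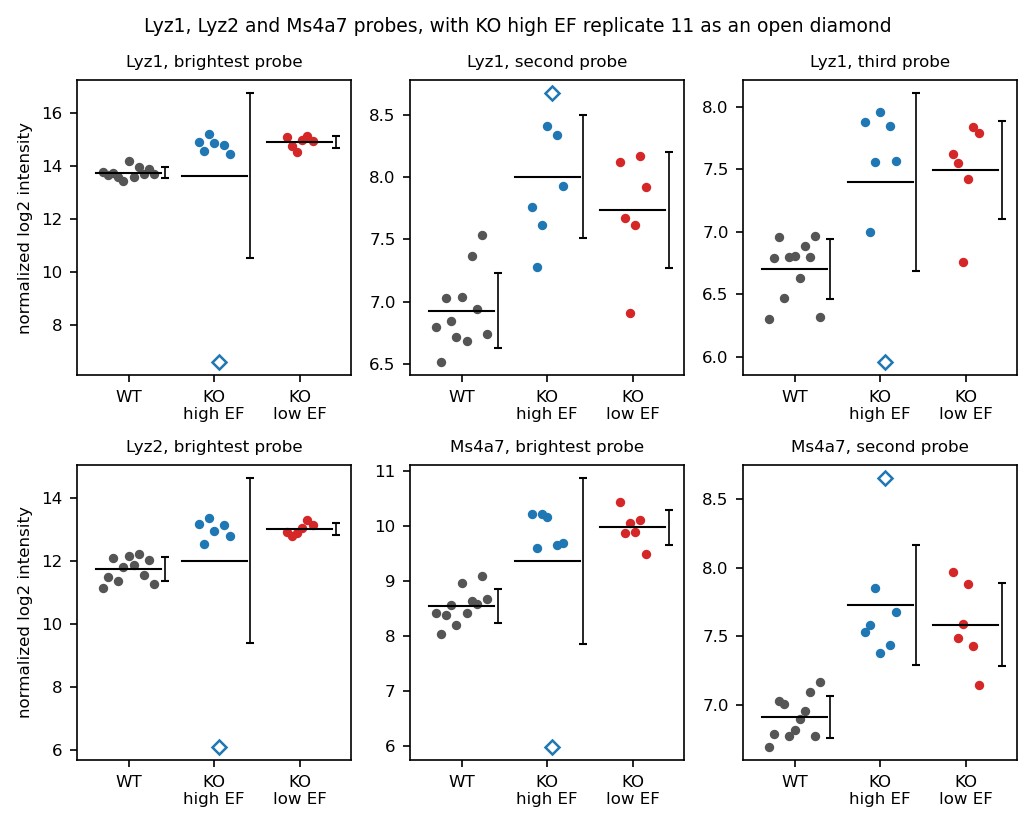
Normalized log2 intensity of 3 Lyz1 probes, 1 Lyz2 probe and 2 Ms4a7 probes in each heart, with group means (lines) and SD (bars) including KO high EF replicate 11, the open diamond. Replicate 11 is the lowest heart on 4 of these probes and the highest on the second probes of Lyz1 and Ms4a7.

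Lyz1 and Lyz2 are neighbouring copies on mouse chromosome 10, and the DNA at their starts shows how alike they are. The 4 promoters are printed here for that reason and because Mrc1 and Ctss are single genes of the resident and phagocyte groups that rose in both KO groups. Each runs from 250 bases before the transcription start to 30 after it, 5′ to 3′ on the gene's strand, from RefSeq's GRCm38.p6 annotation. Capitals mark a motif of PU.1, a transcription factor of myeloid cells, searched as AGGAAGT and its reverse complement ACTTCCT on either strand. The motif is not particular to PU.1. The regions are chr10:117282243-117282522 (minus strand) for Lyz2, chr10:117292839-117293118 (minus strand) for Lyz1, chr2:14229164-14229443 (plus strand) for Mrc1 and chr3:95526536-95526815 (plus strand) for Ctss.
Lyz2: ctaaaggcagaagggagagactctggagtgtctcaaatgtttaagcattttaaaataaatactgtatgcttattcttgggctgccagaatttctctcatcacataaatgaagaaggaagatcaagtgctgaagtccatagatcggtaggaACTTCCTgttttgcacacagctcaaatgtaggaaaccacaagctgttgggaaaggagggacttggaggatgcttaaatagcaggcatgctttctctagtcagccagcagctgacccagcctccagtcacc
Lyz1: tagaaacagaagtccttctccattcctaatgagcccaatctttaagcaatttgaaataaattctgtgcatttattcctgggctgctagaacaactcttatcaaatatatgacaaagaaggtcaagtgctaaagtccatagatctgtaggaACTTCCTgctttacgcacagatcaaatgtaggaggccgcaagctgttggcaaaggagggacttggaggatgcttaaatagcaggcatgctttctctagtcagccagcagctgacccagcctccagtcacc
Mrc1: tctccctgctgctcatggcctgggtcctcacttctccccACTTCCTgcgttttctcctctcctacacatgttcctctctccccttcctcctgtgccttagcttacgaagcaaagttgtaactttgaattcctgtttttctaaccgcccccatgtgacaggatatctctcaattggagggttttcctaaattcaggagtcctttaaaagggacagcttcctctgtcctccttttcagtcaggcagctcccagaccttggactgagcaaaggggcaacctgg
Ctss: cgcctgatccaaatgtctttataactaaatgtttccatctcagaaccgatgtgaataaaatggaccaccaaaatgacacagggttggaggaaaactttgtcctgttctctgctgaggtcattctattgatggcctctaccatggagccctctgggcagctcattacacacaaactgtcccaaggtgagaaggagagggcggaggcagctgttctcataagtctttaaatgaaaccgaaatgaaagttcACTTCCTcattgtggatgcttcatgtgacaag

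In these stretches the motif begins 100 bases before the start in both lysozyme genes, 211 before it in Mrc1 and 2 before it in Ctss. Over the 300 bases held for each (250 before and 50 after the start), Lyz1 and Lyz2 were identical at 201 positions when laid side by side without gaps, and at 141 of the last 150. RefSeq's promoter table held 27 of the 37 members. The motif was present in the window of 8 of these 27 (29.6%), namely Cd53, Ctss, F13a1, Fcgr1, Lyz1, Lyz2, Mrc1 and Ptprc, and in 10.7% of all 27025 genes in the table. A match of letters is a description of the sequence and not a measured binding site. Of these 8 genes, Ptprc, Lyz1 and Lyz2 did not pass in either comparison with all arrays, and Lyz1 and Lyz2 passed in both without replicate 11.

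Among the pan-leukocyte genes 4 of 5 rose in each KO group. Laptm5, a lysosomal membrane protein of blood cells, measured 11.66, 12.02 and 12.38 in WT (lowest, median and highest), 12.91, 13.18 and 13.45 in KO low EF and 12.55, 13.09 and 13.75 in the KO high EF hearts. The groups did not overlap with WT, and Laptm5 rose by 1.19 ± 0.13 (2.28-fold, adjusted p = 1.53e-07) and 1.13 ± 0.13 (2.19-fold, adjusted p = 7.43e-07). Cd53, a tetraspanin of leukocytes, rose by 1.01 ± 0.18 and 1.16 ± 0.17, Cd52, a small anchored glycoprotein, by 0.84 ± 0.19 and 0.91 ± 0.18, and Coro1a, an actin regulator, by 0.85 ± 0.15 and 0.80 ± 0.14. Ptprc, which encodes the leukocyte phosphatase CD45, was the exception. It measured 6.26, 6.67 and 6.87 in WT, 6.61, 6.68 and 6.98 in KO low EF and 6.54, 6.67 and 7.04 in the KO high EF hearts, all close to the array median. Its differences were 0.17 ± 0.10 (adjusted p = 0.276) and 0.15 ± 0.10 (adjusted p = 0.358), and its 3 other probes did not pass the filter.

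All 7 Fc receptors, lectins and adaptors rose in both KO groups, with a median of 1.23 in each. Trem2, a lipid-sensing receptor that signals through Tyrobp, measured 7.08, 7.47 and 8.02 in WT (lowest, median and highest), 8.61, 8.84 and 9.42 in KO low EF and 8.35, 8.73 and 8.88 in the KO high EF hearts. It rose by 1.45 ± 0.13 (2.73-fold, adjusted p = 8.97e-09) and 1.23 ± 0.13 (2.34-fold, adjusted p = 3.05e-07). Its adaptor Tyrobp rose by 0.85 ± 0.11 and 0.96 ± 0.10, and Fcer1g, the shared ITAM chain of the Fc receptors, by 1.15 ± 0.26 and 1.05 ± 0.24. For Trem2 and Tyrobp all KO hearts lay above all WT hearts, while Fcer1g overlapped. Clec4n, the fungal lectin receptor dectin-2, rose by 1.33 ± 0.15 and 1.32 ± 0.14.

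Among the receptors for immunoglobulin G, Fcgr3, an activating one, rose by 1.25 ± 0.12 and 1.30 ± 0.12. Fcgr2b, the inhibitory one, rose by 1.23 ± 0.12 in each group. Fcgr3 measured 8.71 to 9.28 in WT and 9.85 to 10.77 over both KO groups, and Fcgr2b 8.23 to 9.29 and 9.81 to 10.48, so neither overlapped. Fcgr1, the high-affinity receptor, had the smallest rise of the 7, with 6.90, 7.25 and 7.48 in WT, 7.51, 7.74 and 7.98 in KO low EF and 7.23, 7.65 and 8.61 in the KO high EF hearts. It rose by 0.50 ± 0.14 and 0.51 ± 0.13 (adjusted p = 0.00991), and by 0.37 ± 0.10 in KO high EF hearts without replicate 11, its highest heart.

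Of the phagocyte genes, 4 of 4 tested rose in KO low EF and 3 of 4 in the KO high EF hearts. Gpnmb, a glycoprotein of lysosomes and phagosomes, measured 7.66, 8.35 and 8.70 in WT (lowest, median and highest), 8.77, 9.53 and 9.99 in KO low EF and 9.10, 9.35 and 9.65 in the KO high EF hearts. Both KO groups lay above all WT hearts, and Gpnmb rose by 1.28 ± 0.17 (2.43-fold) and 1.15 ± 0.16 (2.22-fold). Mpeg1, a pore-forming protein of macrophages, rose by 1.10 ± 0.18 and 1.17 ± 0.17, and Ctss, the lysosomal protease cathepsin S, by 0.78 ± 0.11 and 0.90 ± 0.11, both without overlap. Ncf1, the cytosolic organizer of the phagocyte oxidase, was dim, at 6.19, 6.42 and 6.90 in WT, 6.62, 7.05 and 7.40 in KO low EF and 6.39, 6.84 and 7.18 in the KO high EF hearts. It rose by 0.51 ± 0.13 in KO low EF hearts, and its KO high EF difference of 0.32 ± 0.13 did not pass (adjusted p = 0.106, and 0.0222 without replicate 11). The brighter Cybb probe stayed at or below 6.65 in every heart, while Ncf4 and Cyba, other oxidase subunits, rose by 0.80 ± 0.17 and 0.46 ± 0.11 in KO low EF hearts and by 1.00 ± 0.16 and 0.41 ± 0.10 in KO high EF hearts.

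Of 14 further lysosome and phagocyte genes, 11 rose in each KO group (12 without replicate 11) and none fell. Lgals3, or galectin-3, rose by 3.10 ± 0.27 (8.57-fold) and 1.97 ± 0.26 (3.92-fold), Spp1, or osteopontin, by 1.89 ± 0.25 and 1.60 ± 0.24, and Apoe by 1.01 ± 0.17 and 0.87 ± 0.16. Ctsk, or cathepsin K, which fibroblasts also make, rose by 1.47 ± 0.10 and 1.06 ± 0.09, and Cd63, a tetraspanin of late endosomes, by 0.95 ± 0.09 and 0.80 ± 0.08. Ctsd and Ctsl, the probes for cathepsins D and L, measured -0.09 ± 0.10 (adjusted p = 0.595) and -0.09 ± 0.13 (adjusted p = 0.721) in KO low EF hearts.

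The remaining surface genes rose in both groups. Ms4a6d, a relative of Ms4a7, had the largest difference of all 35 members. Its values were 8.48, 8.78 and 9.80 in WT (lowest, median and highest), 10.25, 10.34 and 11.83 in KO low EF and 9.83, 10.38 and 11.06 in the KO high EF hearts, without overlap. It rose by 1.71 ± 0.22 (3.27-fold, adjusted p = 1.95e-06) and 1.57 ± 0.21 (2.97-fold, adjusted p = 1.22e-05). Cd86, which co-stimulates T cells, rose by 0.89 ± 0.11 and 0.66 ± 0.11, with all KO hearts (8.34 to 9.22) above all WT hearts (7.56 to 8.18). Cd84, an adhesion receptor of the SLAM family, measured 6.29, 7.22 and 7.49 in WT, 7.71, 7.98 and 8.24 in KO low EF and 7.56 to 8.42 in 6 KO high EF hearts, with replicate 11 at 6.29. It rose by 0.86 ± 0.22 and 0.66 ± 0.21 (adjusted p = 0.0316), or 0.90 ± 0.14 in KO high EF hearts without that heart.

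Separation from WT was complete for 24 of the 35 members in KO low EF hearts, against 7.95% of all genes in that direction. In KO high EF hearts it was complete for 18 (2.97% of all genes), and for 22 without replicate 11 (3.85%). The prefix of the array label divides the arrays into 4 sets of 6, of which 3 hold KO low EF hearts. Within these 3 sets the median difference of the members from WT was 0.81, 0.87 and 0.82 in KO low EF hearts. In KO high EF hearts it was 0.98, 0.96, 0.75 and 0.90 over the 4 sets. All 30 genes that rose in KO low EF hearts were above WT within each set, as were 26 of the 27 in KO high EF hearts, the exception being Fcgr1. The genes were called on these same hearts, so equal signs within the sets are no further support. Each set holds few hearts, down to 1 of a group, so the values within sets carry no test.

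Of 21 further kept probes, for 13 of the members, 13 rose in KO low EF and 14 in the KO high EF hearts (15 and 16 without replicate 11), and none fell. Those that did not pass in KO low EF hearts were 2 of Lyz2 and 1 each of Aif1, Cd52, Fcgr2b, Gpnmb, Mpeg1 and Cd86. For Aif1 a dim probe measured -0.06 ± 0.09 (adjusted p = 0.721), and for Cd52 the second probe measured 0.40 ± 0.28 (adjusted p = 0.375). The dimmest Lyz2 probe measured 0.12 ± 0.13 (adjusted p = 0.601).

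The direct comparison of the KO groups asks whether macrophage genes were higher in the hearts that pumped worse. None of the 35 members passed in either direction in limma with Benjamini-Hochberg adjustment, against 1.14% of all genes higher and 2.29% lower in KO low EF hearts. None reached an unadjusted p of 0.05 either, against 6.3% and 9.87% of all genes. The median difference was 0.05, and -0.01 over all genes. All 35 members overlapped between the KO groups. The share of all genes that do so was not counted, so the overlap is not taken as particular to the members. The 95% interval of the difference lay within 0.5 log2 units of 0 for 19 members and within 1 unit for 32. For Mrc1 it ran from -0.23 to 0.21, for Fcgr3 from -0.32 to 0.23, for Csf1r from -0.18 to 0.33 and for Trem2 from -0.07 to 0.52. The other 3, Ms4a7, Lyz1 and Lyz2, had wide intervals through replicate 11, without which they measured 0.06 ± 0.16, 0.11 ± 0.13 and 0.02 ± 0.17. Without that heart the 35 differences ran from -0.19 to 0.32 and none passed (background 2.45% higher, 2.74% lower).

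With all arrays the smallest adjusted p between the KO groups was that of Itgam, at 0.19 ± 0.10 (adjusted p = 0.383), followed by Cd86, at 0.24 ± 0.13 (adjusted p = 0.41). Without replicate 11 Cd86 had 0.32 ± 0.11 (adjusted p = 0.111). With arrays weighted by their quality Cd86 measured 0.35 ± 0.10 (adjusted p = 0.0325, the lowest of the 10 alternatives), the only call among the members under them. By role, the median differences in this comparison were 0.07 for resident, 0.26 for recruited, 0 for Fc receptor and adaptor and 0.03 for phagocyte genes. Without replicate 11 they were 0.07, 0.11, 0.13 and 0.06 in the same order. Within the 3 sets of arrays that hold both KO groups the median over the members was -0.02, -0.07 and 0. Genes of the wider lists did differ between the KO groups: Lgals3 was higher in KO low EF hearts by 1.13 ± 0.29 (adjusted p = 0.0359) and Ctsk by 0.42 ± 0.10 (adjusted p = 0.0286).

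Along EF within the KO hearts, no member had a slope past the threshold, where 3.35% of all genes rose and 1.86% fell with EF. At an unadjusted p of 0.05 there were 4 negative slopes and no positive one, for Itgam, Cd14, Trem2 and Cd86, with -0.05 ± 0.03, -0.10 ± 0.04, -0.09 ± 0.04 and -0.08 ± 0.03 log2 units per 10 points of EF (adjusted p from 0.256 to 0.301). Of all genes 7.43% had a negative and 11% a positive slope at that p. Without replicate 11 the slope of Cd86 passed, at -0.11 ± 0.03 (adjusted p = 0.0319), against 3.46% of all genes lower and 3.78% higher. It passed with array weights too (-0.10 ± 0.03, adjusted p = 0.0112), as did Cd14 (-0.12 ± 0.03, adjusted p = 0.0213).

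The level in single hearts separated KO from WT, and KO hearts of low and high EF overlapped. Taken as the median over the 35 members of each heart's difference from the WT mean, WT hearts lay between -0.21 and 0.23, KO low EF hearts between 0.76 and 1.13 (median 0.94) and KO high EF hearts between 0.68 and 1.25 (median 0.91). KO low EF replicate 1, with the lowest EF of 13.7%, lay at 1.09, and KO high EF replicate 8, at 47.2%, lay at 0.91. The lowest KO heart was KO high EF replicate 13, at 0.68. Its EF of 76.4% fell inside the WT range, yet 24 of its 35 members lay above the highest WT heart, as did 11.1% of all genes tested. In the KO low EF hearts 27 to 33 of the 35 did, against 18.4 to 20.5% of all genes. In KO high EF replicate 11 the count was 28, against 43.2% of all genes. The remaining KO high EF hearts had 28 to 30, against 14.2 to 17.8%.

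**Figure D4:**
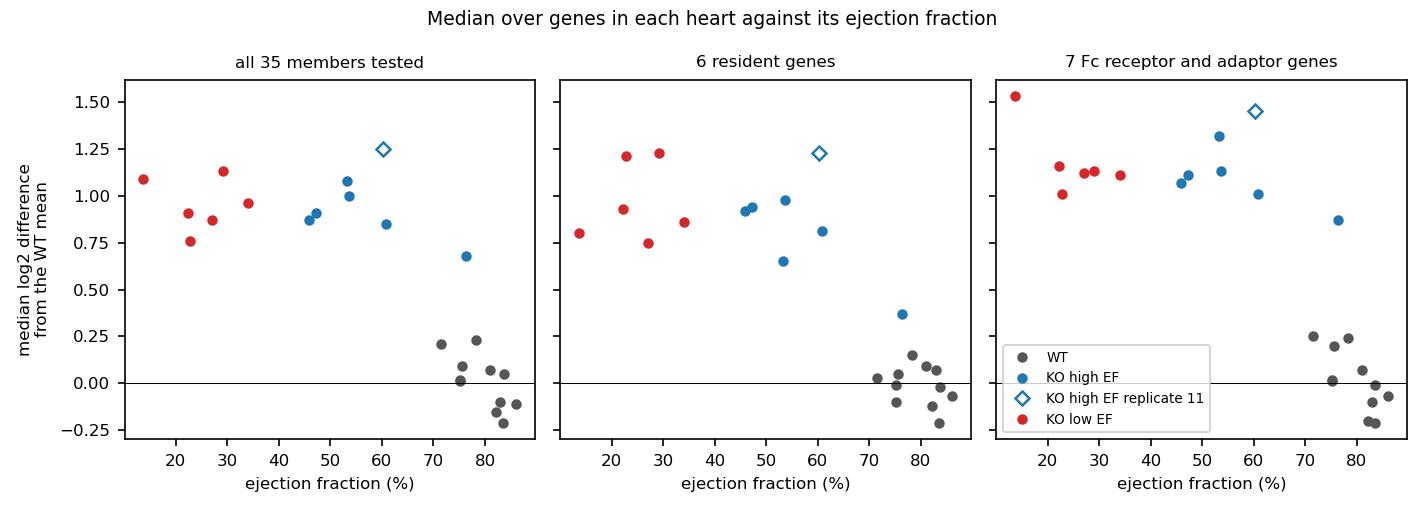
Median log2 difference from the WT mean in each of 24 hearts against its ejection fraction in percent, for the 35 tested members, the 6 resident genes and the 7 Fc receptor and adaptor genes. The open diamond is KO high EF replicate 11. All KO hearts lie at 0.68 or above in the first panel, WT hearts at 0.23 or below, and KO high EF replicate 13 lies lowest among KO hearts in all 3 panels.

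Markers of other cells were set beside these genes. None of the tested T cell (8), B cell (3) or neutrophil (9) genes passed in either KO group. Their mean levels overlapped between all groups (7.36 to 7.58 for T cell genes in WT and 7.37 to 7.67 over KO hearts). Among T cell genes Cd3e measured 0.03 ± 0.10 (adjusted p = 0.891) and among neutrophil genes S100a8 -0.07 ± 0.56 (adjusted p = 0.963) in KO low EF hearts. Of 7 genes of dendritic cells and MHC class II, none passed in KO low EF hearts, and H2-Ab1 passed in the KO high EF hearts (0.70 ± 0.23, adjusted p = 0.0416). H2-Aa measured 1.10 ± 0.55 and 1.00 ± 0.52, with wide errors. Of 5 mast cell genes Kit rose in KO high EF hearts (0.42 ± 0.11), and none passed in KO low EF hearts. Single calls in such short lists say little beside the 10.7% of all genes that rose in KO high EF hearts. The natural killer and T cell gene Prf1 fell by 0.47 ± 0.11 and 0.39 ± 0.11.

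Fibroblast genes rose with the macrophage genes, 7 of 8 in each KO group and 8 of 8 without replicate 11, with Col1a1 at 2.33 ± 0.14 and 1.75 ± 0.14 and Pi16 at 2.08 ± 0.16 and 1.56 ± 0.15. Their mean level was 10.28 to 10.60 in WT, 10.91 to 11.57 in KO high EF and 11.27 to 11.76 in KO low EF hearts. Col1a1 and Cd248 were higher in KO low EF than in KO high EF hearts, by 0.58 ± 0.16 (adjusted p = 0.0422) and 0.44 ± 0.11 (adjusted p = 0.0361). None of 7 endothelial genes passed in either group with all arrays. Without replicate 11 Tie1 fell in KO low EF hearts (-0.20 ± 0.07, adjusted p = 0.0334) and Pecam1 in KO high EF hearts (-0.21 ± 0.07, adjusted p = 0.043). Of 7 cardiomyocyte genes 3 fell in KO low EF and 2 in the KO high EF hearts (3 in each without replicate 11). Of all genes 13.4% and 6.55% fell (18.4% and 10.3% without replicate 11). The mean level of the 7 was 14.93 to 15.17 in WT, 14.70 to 14.85 in KO low EF and 14.84 to 14.97 in the KO high EF hearts. Myh6, Actn2 and Myl2 measured 15.82 to 16.03 in all hearts, at the bright end of the scale. Their group SDs were 0.07 or less, so a fall in them may not show. Pln, the inhibitor of the calcium pump of the sarcoplasmic reticulum, fell by 0.72 ± 0.09 and 0.35 ± 0.09, and Ryr2, its calcium release channel, by 0.50 ± 0.07 and 0.33 ± 0.07. Of 4 red cell genes, Alas2, a haem synthesis enzyme, fell in KO high EF hearts (-1.08 ± 0.35, adjusted p = 0.0399). Without replicate 11 Alas2 fell in both groups, by 0.56 ± 0.14 and 0.57 ± 0.14. The part of these cells in the level of the macrophage genes was not tested.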

How the data were processed

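RNA was prepared with the Qiagen RNeasy fibrous tissue kit with DNase, checked on a Bioanalyser and labelled as biotin cRNA with Illumina TotalPrep, per the labels' protocols. The submitters' processing notes name BeadStudio and R 2.8.0. The deposited non-normalized table holds summarized bead intensity per probe on a linear scale, and whether the authors had subtracted background is not stated. The authors' normalized table holds log2-like values with 1 distribution for all arrays, compressed at the dim end, and was an alternative here. Their summary table holds group means and SDs and a p-value over the 3 groups, per the file headers. It was joined to the other tables by its 3 means and 3 SDs, within 2e-06, for all 45281 probes.

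Intensities were corrected with normexp (offset 50), put on the log2 scale and quantile normalized with limma 3.58.1 (R 4.3.3). The offset and the dim end of the scale understate the change of dim probes. Probes above the array median in at least 6 arrays were kept. All 24 arrays entered 1 limma fit of 3 group means, with Benjamini-Hochberg adjustment over 25425 probes, and a further fit gave the slope on EF within genotype. The code was checked on simulated data. The platform table named 34885 probes, 10396 had no gene there, and Cd68 was named through the authors' summary table. Each gene was read from its brightest kept probe. Shares of all genes rest on 13009 genes, 1 probe each. Hearts of a group are separate mice.

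The members and the further lists were chosen with earlier results of these data known. All members are named. Values by heart are given for the largest and smallest KO low EF difference of each role group, and of each further list up to 2 genes that passed in each direction, those with the smallest p, are named. Il34, Spi1, Chil3, Hp, Plac8, Spp1, Apoe, Ctsd, Ctsl, Cyba, Cd3e, S100a8, H2-Aa, Cd248, Tie1 and Pecam1 fall outside that rule, and other members with values by heart were also added, all after their values were seen. The number of arrays limits the precision. Replicate numbers are shared by the groups, but over 11 pairs the correlation of deviations ran from -0.01 to 0.18, with 2 above 0.1, so the numbers were not taken to pair samples. Alternatives were array scaling to a common median, no background correction, the authors' table, other filters, the mean over a gene's probes, the array-label prefix as a block, array weights, the replicate number as a block and leaving out KO high EF replicate 11. Other single hearts were not left out in turn, since no group held 5 or fewer. Protein sequences were not used here.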

Additional observations from a re-analysis of the deposited data

Results flagged for a closer look

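Each of the 35 members was screened in both KO groups for a heart far from the rest of its group, which made 70 screens. They marked 9 values, 6 of them in KO high EF replicate 11, and chance marks about 1 in 20 groups. In replicate 11, Csf1 measured 7.19 where the nearest heart measured 8.80, and Cd84 measured 6.29 where it measured 7.56. Ms4a7 measured 5.99 against a nearest heart of 9.60, Lyz1 6.63 against 14.44, and Lyz2 6.10 against 12.56. Lyve1 was the 1 gene of these 6 that was high there, at 10.67 against 10.22.

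The other 3 values came from hearts whose arrays did not stand apart. KO low EF replicate 3 was low for Adgre1, at 9.66 against 10.00, and high for Ms4a6d, at 11.83 against 10.47. KO high EF replicate 13, whose EF of 76.4% lay in the WT range, was low for Trem2, at 8.35 against 8.68, and still above the highest WT heart at 8.02.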

How the results depend on the processing

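Over the 10 alternatives 28 to 33 members rose in KO low EF and 23 to 31 in KO high EF hearts, and none fell. Of the 30 genes that rose in KO low EF hearts 27 passed under each of the alternatives run, all but Cx3cr1, Lyve1 and Ms4a7. Of the 27 in KO high EF hearts 22 did, all but Cd163, Cd84, Fcgr1, Itgb2 and Lyve1. The median difference of the members was 0.73 and 0.66 with the authors' table (KO low EF, then KO high EF, against WT) and 0.80 and 0.74 with the mean over a gene's probes, lower than with 1 probe per gene by more than the spread of 0.14 between WT hearts. Between the KO groups the median was 0.21 with arrays scaled to a common median (0.08 over all probes). There, over all probes, 3026 were higher and 1537 lower in KO low EF hearts than in WT, against 3069 and 3136 with quantile normalization. Array weights gave 1 member higher in KO low EF than in KO high EF hearts and 2 negative slopes on EF, and leaving out replicate 11 gave 1 such slope. The KO high EF difference of Csf1 turned positive with median scaling (9e-04), with array weights (0.18) and without replicate 11 (0.18). For Lyz1 it did so with the authors' table (0.18), the mean of probes (0.55), array weights (0.99) and without replicate 11 (1.06). With the replicate number as a block, Lyz2 measured -0.16 and the counts were 28 and 23. Under that block the KO low EF calls of Lyve1 and Cx3cr1 (adjusted p = 0.0556 and 0.055) and the KO high EF calls of Lyve1, Itgb2, Fcgr1 and Cd84 (0.0969, 0.0731, 0.0699 and 0.297) were lost. The cause was not tested, except that leaving out replicate 11 removes the single low heart of Csf1, Lyz1 and Lyz2.

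Probes near the array median, as for Ccr2, Cybb, Itgam, Ptprc and Ncf1, limit what can be seen of these genes. The groups differ in age range little and in EF by design, so genotype and heart function are not separate factors in the comparisons with WT. Effects of EP4 loss in the heart and of the failing heart cannot be told apart there.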
